A study of Mus musculus with 36 samples.

Results

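Ribosome protected fragments (RPFs) of fraction 5/6 from wild-type (WT) mouse brain, made with the low nuclease protocol, were compared with the WT brain RNA-seq that the labels group with that protocol. These 6 libraries, 3 of RPFs and 3 of RNA-seq, were picked from the 36 of the series by their labels. All came from untreated C57BL/6 mice at postnatal day 5, with 10 brains pooled per preparation and homogenized in granule buffer with 2.5 mM MgCl2, and the labels do not tell which brains went into which replicate. The homogenate was cleared of debris, polyribosomes were collected and run on a sucrose gradient, and fraction 5/6 holds the ribosome clusters that stay in the gradient while heavier RNA granules pellet. Digestion with RNase I was done in the cold, and RNA of 25 to just above 40 bases was then cut from a gel. The standard protocol of the same series used a more effective digestion, with RNase I of another supplier, together with 10 mM MgCl2. Digested single ribosomes (monosomes) were pelleted there, and taken from a second gradient in the low nuclease protocol. The effects of these steps cannot be told apart wherever the preparations are compared. The 3 RPF replicates received separate linkers and were pooled before reverse transcription, so the p-values measure the spread between these libraries, which may in part be technical.

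A translating ribosome shields the stretch of mRNA inside it from nuclease, and sequencing of these RPFs counts ribosomes on each gene. Dividing RPFs by RNA-seq gives the occupancy, a measure of how many ribosomes of a fraction sit on a gene's mRNA. An mRNA with many ribosomes moves deeper into the gradient than one with few, and in neurons part of the heavy clusters are compacted polysomes with ribosomes that paused before transport. A long coding sequence can carry more ribosomes, and an mRNA can be low in fraction 5/6 because it is poorly translated or because its ribosomes run in another fraction, which cannot be told apart here. In whole brain, cell types also contribute together, so that fewer cells of a type and less RNA per cell cannot be told apart.

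The deposited table held 25756943, 44133113 and 45374271 counts for RPF replicates 1, 2 and 3, and 87493056, 46349715 and 141505786 counts for RNA-seq replicates 1, 2 and 3. RNA-seq replicate 2 stood apart from the other libraries. In this library 82.4% of counts fell in the 15 genes that held over 1% of the counts in any of the 6 libraries, against 0.348% and 0.439% in RNA-seq replicates 1 and 3 and 11.4% to 14.1% in the RPF libraries. These 15 genes were dropped, which left RNA-seq replicate 2 with 8157016 counts, and each gene list is given with and without this library.

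Among the dropped genes, 10 passed 1% in RNA-seq replicate 2, none of them in RNA-seq replicates 1 and 3, and 6 passed it in at least 1 RPF library. Cdk8, a kinase of the Mediator complex, was the gene that did so in both kinds of library. It took 5.62%, 5.02% and 2.69% of the RPF counts and 9.22% of the counts of RNA-seq replicate 2, against 0.0241% and 0.00566% in RNA-seq replicates 1 and 3. The RNA-seq replicate 2 excess was led by Cmss1 and Filip1l, with 25.2% of its counts each. These genes overlap on opposite strands and had nearly equal counts, as did Csad and Zfp740, with 1.08%, 0.930% and 2.01% of the RPFs for Csad. Other dropped genes were Tcf7l2 and Itga9, with up to 1.83% and 1.13% of an RPF library, and Arsg, Lars2, Zc3h7a, Jarid2, Gphn and Il31ra, with 2.24% to 4.61% of RNA-seq replicate 2. None of the 15 matched the ribosomal RNA transcripts of the annotation, which holds no complete 28S unit. Their levels say nothing of occupancy and are not used below.

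**Figure D1:**
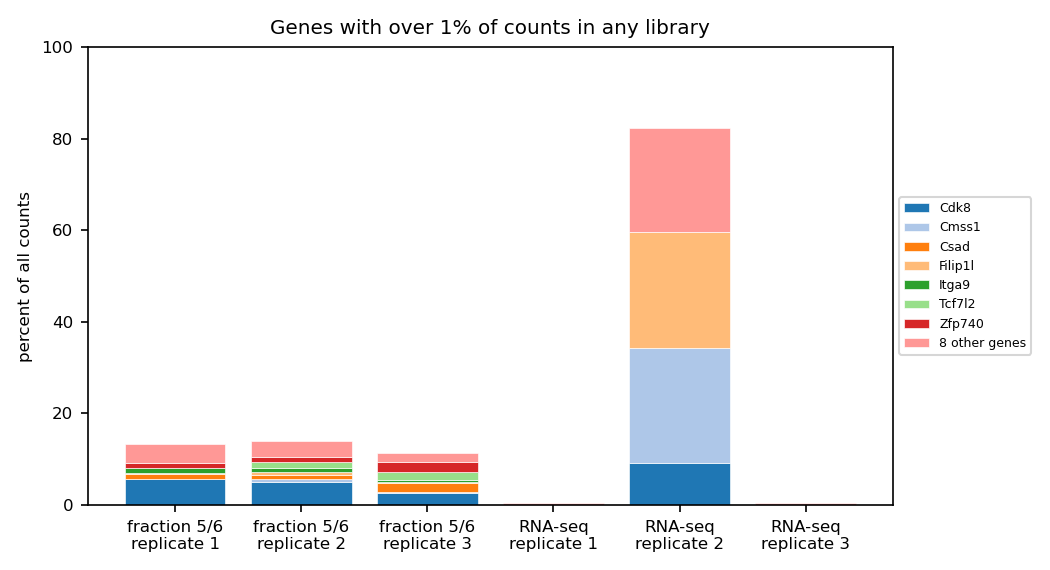
Share of all counts, in percent, held by the 15 dropped genes in the 3 RPF libraries of fraction 5/6 and the 3 RNA-seq libraries, stacked for 7 genes and the sum of the 8 others. RNA-seq replicate 2 reaches 82.4%, the RPF libraries 11.4% to 14.1%, and RNA-seq replicates 1 and 3 stay at 0.348% and 0.439%.

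How reads were assigned to genes bears on all values. In 138 pairs of a gene nested in another gene with no shared exon, and with at least 100 counts in the nested gene in all 6 libraries, the host gene had at least as many counts in 138 of 138 pairs. The same held for 197 of 197 such pairs on opposite strands in RNA-seq replicate 3. The counts thus covered whole gene spans, introns included, on both strands, and 3983 of the tested genes overlap another gene, whose reads cannot be told apart from theirs. Intronic reads enter the RNA-seq and not the RPFs of an mRNA. In 5 groups of genes by intron bases, from fewest to most, the median log2 occupancy was -0.22, -0.01, 0.14, 0.11 and -0.12. Some values among the limits are also given relative to genes of like span and exonic length. The part of intronic reads in the results was not tested beyond this. Levels are given as CPM, counts per 1e6 counts of the library, scaled by the trimmed mean of M-values (TMM), not per length, so they compare a gene between libraries and not 1 gene with another.

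Of 15776 protein-coding genes tested, 4464 (28.3%) were higher and 4623 (29.3%) lower in RPFs than in RNA-seq at an adjusted p under 0.05 (quasi-likelihood test of edgeR, p-values adjusted by Benjamini and Hochberg), with a median log2 occupancy of -0.02. The spans of CPM in the 3 RPF and the 3 RNA-seq libraries did not overlap for 33.6% of genes in the upward and 32.1% in the downward direction. Without RNA-seq replicate 2, 16114 genes were tested, of which 4823 (29.9%) were higher and 5170 (32.1%) lower. Of the calls with all libraries, 4237 higher and 4430 lower genes were called again without it, none in the opposite direction, while 227 and 193 were lost.

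A second denominator was at hand, the RNA-seq of the WT standard preparation, from brains of the same strain and age. The study's text names whole brain homogenate as the source of its RNA-seq, and the labels give no source for each set of its own. Spearman correlations across 16274 genes were 0.885 to 0.936 between RNA-seq libraries of the different preparations and 0.956 to 0.995 within a preparation. With that RNA-seq, 4400 genes were higher and 4521 lower among those tested above, of which 3108 and 2521 were called the same way with both denominators and 450 the opposite way. Each gene list below is therefore given with both, cell type markers with the RNA-seq of their own preparation alone, and 5 of 27 lists turned direction between them. The percentages of 28.3% higher and 29.3% lower over all genes are the background against which the counts of each list stand.

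**Figure D2:**
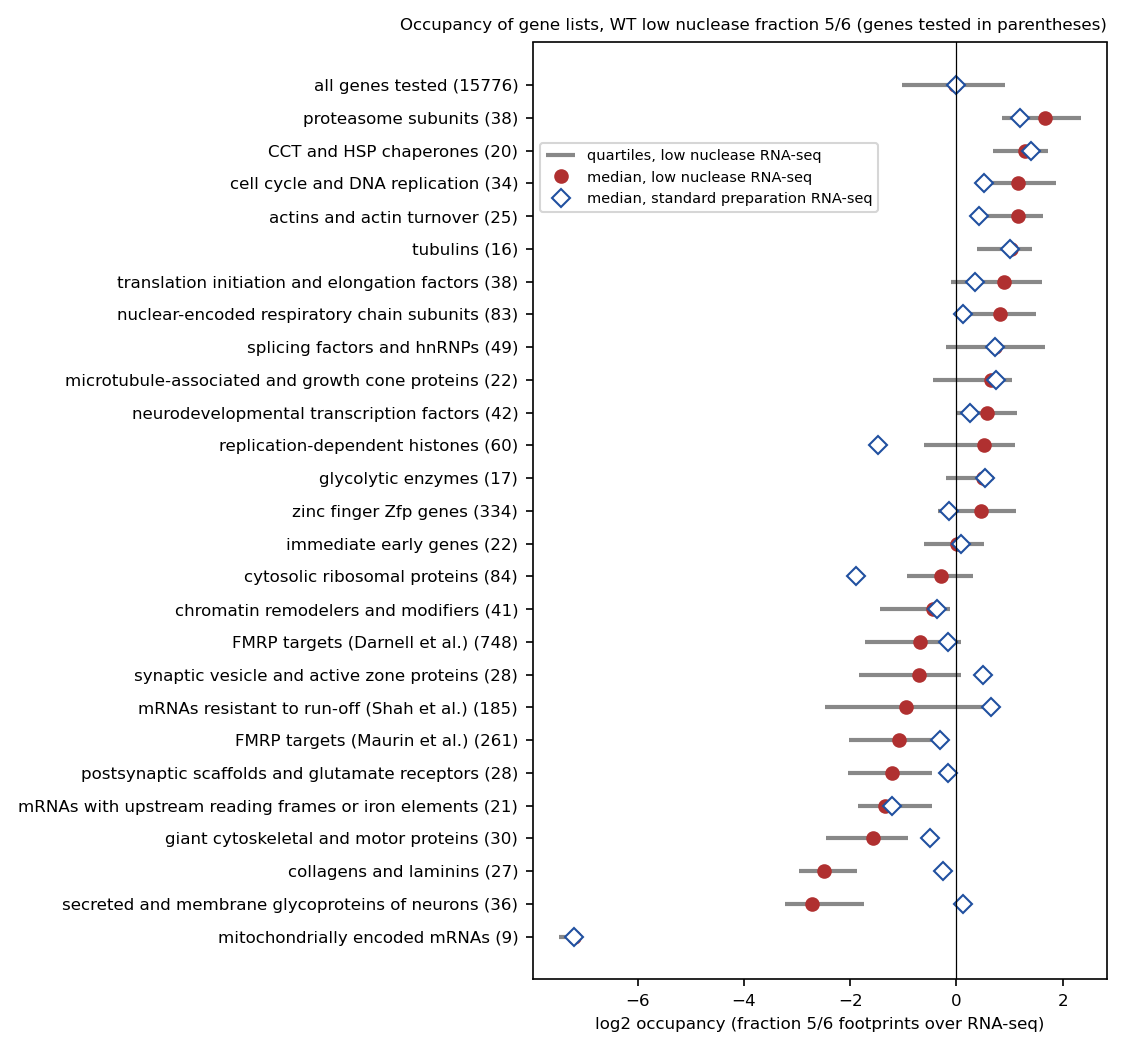
Median log2 occupancy of each gene list (filled circles) with its quartiles (bars), and the median with the RNA-seq of the standard preparation as denominator (open diamonds), on a log2 axis where 0 is equal RPF and RNA-seq level. Proteasome subunits (1.67), chaperones (1.30), actins (1.16) and cell cycle genes (1.16) lie highest, mitochondrially encoded mRNAs (-7.19) lowest, and the glycoproteins of neurons move from -2.73 to 0.12 with the other denominator.

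Genes of protein turnover and folding were high in fraction 5/6. The proteasome degrades ubiquitin-tagged proteins, and of its 38 subunit genes 29 were higher and none lower, with a median log2 occupancy of 1.67 (1.20 with the standard RNA-seq, where 26 of the 29 were again higher). Psmc6, an ATPase of the regulatory particle, had 338, 310 and 302 CPM in RPFs and 15.7, 20.8 and 19.1 CPM in RNA-seq, a log2 occupancy of 4.10 ± 0.23 (SE, adjusted p = 0.00019, edgeR). Psmc3, another of these ATPases, stood at 1.45 ± 0.23 (adjusted p = 0.0014), whereas Psmd2, a scaffold of the same particle, did not pass at 0.26 ± 0.29 and overlapped between groups, but was higher with the standard RNA-seq (0.63, adjusted p = 0.018). Among 20 genes of the CCT chaperonin and heat shock families, 13 were higher and 1 lower, with a median of 1.30 (1.41 with the standard RNA-seq, 13 higher with both). Cct4, a subunit of the chaperonin that folds actin and tubulin, had 609, 575 and 379 CPM in RPFs and 54.7, 55.5 and 61.1 CPM in RNA-seq, a log2 occupancy of 3.19 ± 0.27 (adjusted p = 0.00025). Hspa8, the constitutive Hsp70, was higher by 0.95 ± 0.33. Hsp90ab1 had 0.78 ± 0.47, which did not pass, but passed without RNA-seq replicate 2 (1.39, adjusted p = 0.012) and with the standard RNA-seq (1.48, adjusted p = 0.0019). The member that was lower, Hsp90b1, is the Hsp90 of the endoplasmic reticulum (ER): it had 36.4, 57.0 and 32.4 CPM in RPFs against 85.9, 361 and 121 CPM in RNA-seq, a log2 occupancy of -2.17 ± 0.55, -1.30 without RNA-seq replicate 2, but 1.51 with the standard RNA-seq, where its level was 14.6 CPM at most.

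Actins and tubulins were also mostly higher against the RNA-seq of their own preparation. Of 25 genes for actins and actin turnover, 16 were higher and 3 lower (median 1.16). Against the standard RNA-seq, 13 were higher and 10 lower (median 0.42), 12 and 3 of them with both, and 2 had opposite calls. Actb, beta-actin, had 8728, 8976 and 6625 CPM in RPFs and 3170, 2286 and 2852 CPM in RNA-seq, a log2 occupancy of 1.55 ± 0.32 (adjusted p = 0.0045, edgeR). Dstn, the actin-severing protein destrin, reached 2.47 ± 0.21 and the filopodial bundler Fscn1 1.37 ± 0.38. The opposite direction was seen for Dbn1, the dendritic spine protein drebrin, with 124, 110 and 82.7 CPM in RPFs against 615, 923 and 398 CPM in RNA-seq (-2.61 ± 0.37, adjusted p = 0.00087). Among 16 tubulin genes, 10 were higher and 1 lower (median 1.03, and 1.02 with the standard RNA-seq, 9 higher and 1 lower with both). Tubb5 had 9236, 10477 and 7132 CPM in RPFs and 2141, 1675 and 2033 CPM in RNA-seq, 2.20 ± 0.33 (adjusted p = 0.0011), and the neuronal Tubb3 was higher by 1.04 ± 0.30. Tubb2b, an isotype of newborn neurons, had 3554, 3449 and 2487 CPM against 1703, 2883 and 1572 CPM, and its 0.62 ± 0.35 did not pass, unlike the values without RNA-seq replicate 2 (0.95, adjusted p = 0.023) and with the standard RNA-seq (0.94, adjusted p = 0.0075). The tubulin that was lower, Tuba1b (-2.17 ± 0.25), is nearly identical in sequence to other alpha-tubulin genes, so short reads from it may be lost or split and its value is uncertain.

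Microtubule-associated and growth cone genes were divided, with 9 of 22 higher and 4 lower (median 0.66, and 0.75 with the standard RNA-seq). Dcx, doublecortin of migrating neurons, had 1217, 1329 and 1045 CPM in RPFs and 311, 453 and 312 CPM in RNA-seq, a log2 occupancy of 1.74 ± 0.28 (adjusted p = 0.0015, edgeR). Map1a, a large microtubule-binding protein of mature dendrites, was lower by a log2 occupancy of -3.14 ± 0.30 (174, 202 and 133 CPM against 1344, 1752 and 1385 CPM, adjusted p = 0.00029). Map1b, its relative of growing axons, had 2701, 2948 and 1140 CPM in RPFs and 4281, 11705 and 4683 CPM in RNA-seq. Its log2 occupancy of -1.61 ± 0.54 (adjusted p = 0.036) was -0.99 without RNA-seq replicate 2, where the adjusted p was 0.086. The call was also lost without any 1 of the RPF replicates, without RNA-seq replicate 3, with no gene dropped and with the standard RNA-seq (-0.64).

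Translation factors and splicing factors had more higher than lower genes. Of 38 initiation and elongation factors, 19 were higher and 5 lower (median 0.89). With the standard RNA-seq 16 were higher and 8 lower (median 0.34), 11 and 2 of them with both. Within the initiation factor eIF3, which recruits the small ribosomal subunit, the subunits differed: Eif3e had 106, 120 and 101 CPM in RPFs against 12.7, 11.6 and 17.3 CPM in RNA-seq (2.96 ± 0.22, adjusted p = 0.00023, edgeR), and Eif3a had 86.6, 125 and 72.9 CPM against 245, 947 and 176 CPM (-2.27 ± 0.64, and -1.15 without RNA-seq replicate 2). With the standard RNA-seq neither passed (0.30 and -0.07). The elongation factors with the most counts, Eef1a1 (0.10 ± 0.26) and Eef2 (-0.33 ± 0.28), did not pass the test, but with the standard RNA-seq both were lower (-1.43 and -0.87, adjusted p = 0.0043 and 0.013). Splicing factors and hnRNPs had 24 of 49 members higher and 5 lower, with a median of 0.72 with either RNA-seq and 22 higher and 4 lower with both. Ptbp2, the neuronal splicing repressor, had 630, 548 and 422 CPM against 39.9, 65.0 and 49.4 CPM (3.38 ± 0.30, adjusted p = 0.00026). Hnrnpa2b1 was higher by 1.71 ± 0.37, Hnrnpu had 1.43 ± 0.54 and passed without RNA-seq replicate 2 (2.29) and with the standard RNA-seq (2.28) but not with all libraries, and the large speckle protein gene Son was lower (-1.76 ± 0.24).

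Of 34 cell cycle and replication genes, 24 were higher and 1 lower (median 1.16, and 0.52 with the standard RNA-seq, 15 and 1 with both). The cyclin-dependent kinase gene Cdk6 was the lower one (-0.53 ± 0.18). Its call was lost in 10 of the alternatives, among them library size alone, DESeq2, the replicate block and leaving out any library but RNA-seq replicate 2, and relative to genes of like span and exonic length its value was 0.15. The genes Cdk4 (0.45 ± 0.23) and the cyclin Ccnd2 (0.01 ± 0.36) did not pass. The largest rise, that of the mitotic kinase gene Aurkb (3.37 ± 1.05), came from RPF replicate 3: the RPF libraries had 15.9, 15.6 and 214 CPM, and without RNA-seq replicate 2 it no longer passed (adjusted p = 0.081, edgeR). Transcription factors of neural development had 20 of 42 members higher and 2 lower (median 0.57). Against the standard RNA-seq, 12 were higher and 6 lower (median 0.25), but only 6 and 1 of them with both. Mef2c, a factor of cortical neurons, had 1179, 1205 and 899 CPM against 235, 484 and 293 CPM (1.70 ± 0.34). Id2 was higher by 2.14 ± 0.21 (0.50 with the standard RNA-seq, not passing), Dlx1, a factor of inhibitory neuron precursors, was lower (-0.79 ± 0.23), and Nfix did not pass (-0.67 ± 0.27), though it was lower without RNA-seq replicate 2 (-0.84) and with the standard RNA-seq (-0.50). Zinc finger Zfp genes had 136 of 334 higher and 46 lower with a median of 0.46, but 67 higher and 109 lower with a median of -0.14 with the standard RNA-seq. In this family Zfp791 reached 5.97 ± 0.71. Scaled together with the standard preparation, its RNA-seq had at most 5.37 CPM, and the RPFs of the standard fraction 5/6 had 4655, 27338 and 7963 CPM. Its span also holds a miRNA and a processed pseudogene, and their part was not tested. Zfp973, at 0.0273 to 0.300 CPM in RPFs, was lower (-3.35 ± 0.66) and shares near-identical neighbours that can split its reads. Zfp704 was lower (-0.96 ± 0.26) and Zfp462 did not pass (-0.45 ± 0.27). Chromatin remodelers and modifiers ran the other way, with 6 of 41 higher and 17 lower (median -0.43, and -0.36 with the standard RNA-seq, 4 and 14 with both). Chd3 (-1.80 ± 0.31), Chd5 (-1.29 ± 0.33, but 0.05 with the standard RNA-seq, not passing) and Trrap (-2.69 ± 0.26), which are large proteins, were lower, and Smarcb1, a small core subunit of the BAF complex, was higher (2.02 ± 0.27). The immediate early genes, which neurons switch on with activity, showed no direction, with 4 of 22 higher, among them Fos (1.24 ± 0.27) and Jun (0.74 ± 0.16), and 3 lower, among them Jund (-2.51 ± 0.46), at a median of 0.01 whose sign changed with 7 of the alternatives. Against the standard RNA-seq, 6 were higher and 2 lower (median 0.09).

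Energy metabolism split by genome. Of 83 nuclear-encoded subunits of the respiratory chain, 43 were higher and 5 lower (median 0.82, and 0.12 with the standard RNA-seq, where 26 were higher and 26 lower; 25 higher and 5 lower with both). Subunits of the ATP synthase were among the higher genes. Atp5a1 had 2781, 2574 and 2317 CPM against 680, 548 and 550 CPM (2.11 ± 0.27), Atp5b was higher by 1.47 ± 0.26, and Atp5c1 had 340, 296 and 363 CPM against 35.6, 38.0 and 44.4 CPM (3.08 ± 0.22, adjusted p = 0.00023, edgeR). The small subunit gene Atp5l was lower, with 1.30, 0.736 and 1.25 CPM against 26.9, 12.8 and 23.4 CPM (-4.29 ± 0.38). All 9 tested mRNAs encoded by the mitochondrial genome, which are translated by the separate ribosomes inside mitochondria, were lower, with a median of -7.19 (-7.04 with genes at 0 set to their bound, and -7.20 with the standard RNA-seq). The mRNA mt-Co1, for a core subunit of cytochrome oxidase, had 2.60, 6.27 and 4.48 CPM in RPFs and 173, 967 and 823 CPM in RNA-seq (-7.19 ± 0.79, adjusted p = 0.00039). For mt-Co2 the RPF libraries had no count, which makes it at least 41.1-fold lower in RPFs against a floor of 3 counts over the group. Glycolytic enzyme genes had 7 of 17 higher and 1 lower (median 0.50, and 0.54 with the standard RNA-seq, 6 and 1 with both). Aldoc rose most (1.98 ± 0.23), Aldoa was higher (0.95 ± 0.27), Pkm did not pass (-0.39 ± 0.32), and Gapdh was lower with 156, 167 and 190 CPM against 540, 370 and 558 CPM (-1.52 ± 0.25, adjusted p = 0.0018), a gene with many processed pseudogenes with which reads can be shared.

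**Figure D3:**
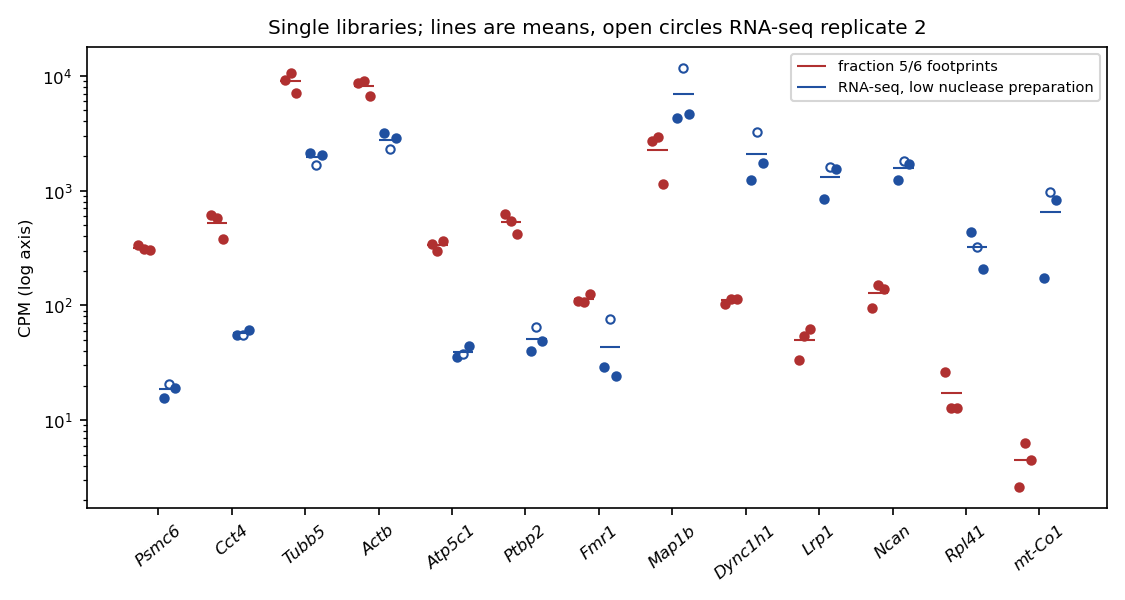
CPM of 13 named genes on a log axis in each RPF library of fraction 5/6 (red) and each RNA-seq library (blue, replicate 2 as open circles), with lines at the group means. The red points lie above the blue ones for Psmc6, Cct4, Tubb5, Actb, Atp5c1, Ptbp2 and Fmr1, and below for Map1b, Dync1h1, Lrp1, Ncan, Rpl41 and mt-Co1.

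Ribosomal protein genes, whose mRNAs begin with a terminal oligopyrimidine (TOP) tract that puts their translation under nutrient signalling, were on the low side: of 84, 11 were higher and 28 lower, with a median of -0.29. With the standard RNA-seq 76 were lower and 1 higher, with a median of -1.89, and 28 were lower with both. Rpsa had 134, 122 and 103 CPM against 733, 488 and 457 CPM (-2.23 ± 0.28, adjusted p = 0.00058, edgeR), and Rpl41, one of the shortest coding sequences of the genome, 26.3, 12.7 and 12.7 CPM against 439, 321 and 209 CPM (-4.23 ± 0.44). Rpl4, one of the longer ones, had 680, 640 and 676 CPM against 306, 345 and 227 CPM (1.19 ± 0.25), but 0.05 with the standard RNA-seq (adjusted p = 0.88). The largest rise, that of the muscle paralog Rpl3l (6.84 ± 0.65), rested on an RNA-seq level of at most 0.133 CPM. Ribosomal protein genes have many processed pseudogenes, so that reads can be split between copies.

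Replication-dependent histone genes had 13 of 60 higher and 9 lower with a median of 0.52, which turned to -1.47 with the standard RNA-seq, where 43 were lower. H1f5, a linker histone, had 183, 149 and 150 CPM against 31.3, 19.3 and 35.5 CPM (2.48 ± 0.27), and H1f4 and H1f2 were higher by 1.16 ± 0.27 and 1.10 ± 0.34. With the standard RNA-seq H1f5 was still higher (1.04), whereas H1f4 (0.24) and H1f2 (0.20) did not pass. Hist1h2ap had 2 RPF counts in all against 1027 RNA-seq counts, a ratio of 0.00547 (95% counting interval 0.000661 to 0.0198), in a family of near-identical copies where reads can be split.

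A list drawn up for regulatory upstream reading frames or iron-responsive elements, which can hold back initiation, was low with either RNA-seq. Whether each member, Oaz1 among them, holds such an element was not checked. Of 21, 1 was higher and 13 lower (median -1.34, and -1.22 with the standard RNA-seq, where 14 were lower, 11 of them with both). Oaz1, ornithine decarboxylase antizyme, had 7.56, 6.93 and 7.49 CPM in RPFs against 115, 81.7 and 81.4 CPM (-3.66 ± 0.22, adjusted p = 0.00019, edgeR). Azin1, which binds antizyme, was the higher member, with 271, 250 and 235 CPM against 118, 112 and 116 CPM (1.13 ± 0.19), but 0.00 with the standard RNA-seq. The iron store gene Fth1 was lower (-0.99 ± 0.23), and Atf4, the transcription factor of the integrated stress response, had 42.0, 34.4 and 34.0 CPM against 66.4, 38.9 and 48.7 CPM. Its -0.48 ± 0.24 did not pass with all libraries and passed without RNA-seq replicate 2 (-0.64, adjusted p = 0.031) and with the standard RNA-seq (-1.22, adjusted p = 0.00026).

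Long genes of the cytoskeleton were low in fraction 5/6 with either denominator. Among 30 giant cytoskeletal and motor proteins, 2 were higher and 22 lower (median -1.58, and -0.49 with the standard RNA-seq, 2 and 15 with both). Dync1h1, the heavy chain of the dynein motor, had 103, 114 and 115 CPM in RPFs against 1249, 3215 and 1740 CPM in RNA-seq (-4.22 ± 0.43, adjusted p = 0.00032, edgeR). The kinesin gene Kif1a, a carrier of synaptic vesicle precursors, was lower by a log2 occupancy of -1.41 ± 0.29, but 0.10 with the standard RNA-seq. Dmd, dystrophin, was higher, with 105, 99.6 and 92.7 CPM against 29.4, 45.3 and 48.7 CPM (1.27 ± 0.23).

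Synaptic genes were low against the RNA-seq of their own preparation. Postsynaptic scaffolds and glutamate receptors had 16 of 28 lower and 1 higher (median -1.21), and with the standard RNA-seq 9 were lower and 6 higher (median -0.16). Shank1, a scaffold of the postsynaptic density, had 188, 268 and 298 CPM against 1519, 890 and 1418 CPM (-2.34 ± 0.33). Grin1, the obligate subunit of NMDA receptors, had 26.7, 43.0 and 32.9 CPM against 218, 342 and 384 CPM (-3.20 ± 0.31, adjusted p = 0.0003, edgeR), yet was higher with the standard RNA-seq (0.69), where its level was 18.7 to 21 CPM. The kinase genes Camk2a (0.02 ± 0.23; 403, 419 and 356 CPM against 398, 327 and 435 CPM) and Camk2b (0.28 ± 0.26, and 0.50 with the standard RNA-seq, where it passed) did not pass, and Camk2g was higher (2.21 ± 0.26). Of 28 synaptic vesicle and active zone genes 6 were higher and 14 lower with a median of -0.70, and with the standard RNA-seq 15 were higher and 8 lower with a median of 0.51. The vesicle fusion ATPase gene Nsf was higher (2.24 ± 0.27), the giant active zone scaffold Bsn lower (-3.64 ± 0.27), and both kept their direction with the standard RNA-seq (1.94 and -2.31).

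Secreted and membrane glycoproteins gave the widest gap between denominators. These proteins are made on ribosomes at the ER membrane. Of 36 such genes of neurons, 33 were lower and none higher, with a median of -2.73, whereas with the standard RNA-seq 11 were higher and 3 lower, with a median of 0.12. Between the preparations, their RNA-seq differed by a median log2 of 2.84 (low over standard) and their RPFs by 0.55. The RPF value includes standard replicate 3, a library whose Fmr1 level goes against its label (below). That library had 176 CPM of Lrp1 against 13.8 and 20.0 CPM in standard replicates 1 and 2, and 249 CPM of Ncan against 60.0 and 58.2 CPM. For Nrxn2 it had 100 CPM against 60.6 and 103 CPM. The RPF median without it was not taken. Ncan, a proteoglycan of perineuronal matrix, had 95.5, 150 and 139 CPM in RPFs and 1240, 1828 and 1694 CPM in RNA-seq (-3.63 ± 0.33, adjusted p = 0.00027, edgeR), and in the standard RNA-seq only 106 to 122 CPM (log2 occupancy 0.03). The receptor gene Lrp1 had 33.5, 54.2 and 62.1 CPM against 838, 1594 and 1532 CPM (-4.72 ± 0.42), and -0.87 with the standard RNA-seq. For the adhesion gene Nrxn2 the log2 occupancy was -3.17 ± 0.30, and -0.24 with the standard RNA-seq. Collagens and laminins had 22 of 27 lower and 1 higher (median -2.49). With the standard RNA-seq the fall was smaller but kept its direction, with 8 lower and 3 higher (median -0.26). In the matrix list Lamb2 was lower with both (-4.10 ± 0.29 and -0.83), Sparc was lower (-1.51 ± 0.25) but higher with the standard RNA-seq (0.84), and Hspg2, perlecan, was the higher gene (119, 396 and 718 CPM against 35.1, 32.4 and 72.5 CPM, 3.14 ± 0.66).

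FMRP, the product of Fmr1, binds mRNAs and is enriched with stalled ribosomes, and 3 lists used by the study bear on this; the study chose them, so they are not independent evidence of a direction. Of 261 FMRP targets of Maurin et al., 24 were higher and 151 lower (median -1.08, and -0.31 with the standard RNA-seq, 84 lower with both). Of 748 FMRP targets of Darnell et al., 107 were higher and 364 lower (median -0.69, and -0.15 with the standard RNA-seq, 187 lower with both). Of 185 mRNAs whose ribosomes resist run-off by Shah et al., 43 were higher and 95 lower (median -0.95), but 106 were higher and 22 lower with the standard RNA-seq (median 0.65), and 41 genes had opposite calls. The direction for this last list therefore depended on the denominator. Fmr1 itself had 109, 107 and 125 CPM in RPFs against 29.1, 76.6 and 24.0 CPM in RNA-seq, with no overlap between groups. Its log2 occupancy was 1.41 ± 0.43 (adjusted p = 0.023, edgeR), 2.10 without RNA-seq replicate 2 (adjusted p = 0.00055) and 1.11 with the standard RNA-seq. The call was lost without RPF replicate 3, RNA-seq replicate 1 or RNA-seq replicate 3, and in the test against a log2 change of 1, with adjusted p from 0.051 to 0.198.

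Without RNA-seq replicate 2, the immediate early genes were the 1 list whose median changed sign, to -0.28 with 4 higher and 7 lower. The median of the glycoproteins moved most, from -2.73 to -2.06, and the lower calls rose from 9 to 17 for histones and from 5 to 9 for respiratory chain subunits. Proteasome subunits then had 29 higher and none lower (median 1.71), chaperones 16 and 1 (1.65), actins 17 and 3 (1.17), tubulins 11 and 2 (1.01), cell cycle genes 24 and 1 (1.31), splicing factors 27 and 6 (1.07), translation factors 21 and 5 (1.05) and respiratory chain subunits 48 and 9 (0.85). Neurodevelopmental factors had 23 and 4 (0.61), Zfp genes 147 and 59 (0.49), microtubule-associated genes 10 and 2 (0.73) and glycolytic enzymes 9 and 1 (0.55). Lower calls were 32 of 36 for glycoproteins of neurons (median -2.06), 22 of 27 for collagens and laminins (-2.42), 21 of 30 for giant cytoskeletal and motor proteins (-1.34), 19 of 28 for postsynaptic genes (-1.23), 13 of 28 for synaptic vesicle genes (-0.63), 17 of 41 for chromatin genes (-0.27) and 9 of 9 for mitochondrially encoded mRNAs (-6.78). Ribosomal protein genes had 12 higher and 32 lower (-0.30), histones 15 and 17 (0.21), and mRNAs with upstream reading frames or iron elements 1 and 14 (-1.10). For histones the median and the larger count thus pointed in different directions. The lists of Maurin et al. had 27 higher and 151 lower (-0.94), of Darnell et al. 114 and 386 (-0.71) and of Shah et al. 47 and 91 (-0.80). Of the genes named for their calls, 10 moved over 1.5-fold without this library, namely Arhgap21, Col8a1, Eif3a, Fmr1, Hsp90b1, Map1b, Tax1bp1, mt-Nd2, mt-Nd5 and mt-Nd6. Leaving out 1 or another of the 6 libraries ended the call of 12, namely Aldoa, Arhgap21, Aurkb, Cdk6, Col8a1, Dlx1, Fmr1, H1f2, Hspa8, Map1b, Tubb3 and Zfp704. The standard RNA-seq ended that of 16, namely Antxr1, Azin1, Chd5, Col8a1, Eif3a, Eif3e, H1f2, H1f4, Id2, Kcng1, Kif1a, Map1b, Ncan, Nrxn2, Rpl4 and Snhg11, and called Grin1, Hsp90b1 and Sparc the opposite way.

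Grouping genes by the coding length of their transcripts, a grouping made after the values of the lists had been seen and given as a description, showed where the long genes stood. The median log2 occupancy was -0.12 for 1501 genes up to 500 bases, 0.04 for 500 to 1000 bases, 0.15 for 1000 to 2000 bases, -0.05 for 2000 to 4000 bases, -0.60 for 4000 to 8000 bases and -1.38 for the 176 genes over 8000 bases. In the last class 117 genes (66.5%) were lower and 15 higher, against 29.3% and 28.3% over all genes. Without RNA-seq replicate 2 the class medians were -0.18, -0.01, 0.12, -0.06, -0.53 and -1.26 from short to long. The class medians with the standard RNA-seq were -0.71, -0.15, 0.15, 0.13, -0.17 and -0.57 from short to long. Both denominators thus placed genes of 1000 to 2000 bases highest and the longest genes below them. The shortest class was at -0.12 with one and, below the longest genes, at -0.71 with the other.

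**Figure D4:**
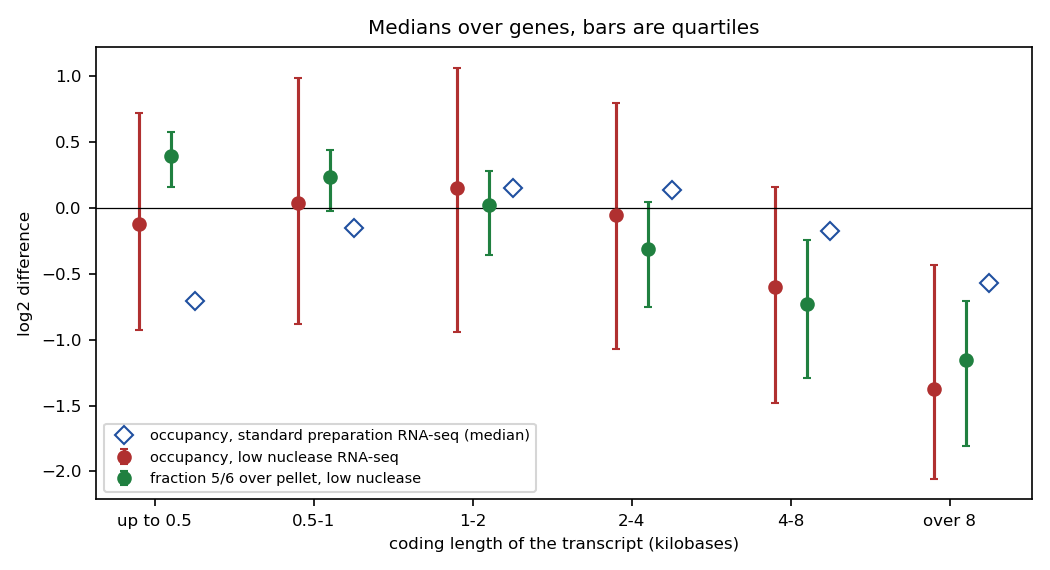
Median log2 difference of genes in 6 classes of coding length, in kilobases, for occupancy with the low nuclease RNA-seq and for fraction 5/6 over pellet (filled circles, bars are quartiles), and for occupancy with the standard RNA-seq (open diamonds). Occupancy with the low nuclease RNA-seq is highest at 1 to 2 kilobases (0.15) and lowest over 8 kilobases (-1.38), while with the standard RNA-seq the shortest class lies lowest (-0.71), and fraction 5/6 over pellet falls from 0.39 in the shortest to -1.16 in the longest class.

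The largest rises of single genes were of genes hardly present in the RNA-seq. Of 3268 higher genes that passed with and without RNA-seq replicate 2 with no overlap between groups and at least 10 CPM in RPFs, the 10 with the largest rises were Foxe1, Hoxa9, Hoxd11, 7530416G11Rik, Gykl1, 1810046K07Rik, Gata4, Fgg, Vmn2r26 and Rfx8. Several encode transcription factors of other organs (thyroid, posterior body axis, heart), Fgg a fibrinogen chain of liver, and Vmn2r26 a vomeronasal receptor. Foxe1 (chromosome 4, 46343609 to 46346412, GRCm38) had no RNA-seq count and 3936, 958 and 6.37 CPM in RPFs. Hoxa9 had 47.4, 3.05 and 1142 CPM, Gata4 10.8, 2.78 and 427 CPM, Gykl1 68.8, 1.83 and 5.14 CPM, and Rfx8 0.400, 3093 and 3419 CPM, so that the RPF libraries of these genes disagreed by over 10-fold. Steadier were Hoxd11 (145, 30.0 and 51.5 CPM, a mean at least 6885-fold higher than a floor of 3 RNA-seq counts over the group), Fgg (25.5, 24.6 and 12.6 CPM, a mean at least 1908-fold higher than that floor), 7530416G11Rik (832, 667 and 1870 CPM, 14.28 ± 0.94) and 1810046K07Rik (489, 235 and 153 CPM, 13.54 ± 0.81). For genes such as these the log2 value depends on the prior count added to the RNA-seq.

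Of 3198 lower genes that passed the same rule, 6 of the 10 with the largest falls were mitochondrially encoded beside mt-Co1, namely mt-Nd1 (-7.48), mt-Nd6 (-7.40), mt-Nd4 (-7.04), mt-Cytb (-7.04), mt-Nd2 (-6.96) and mt-Nd5 (-6.85). RNA-seq replicate 2 carried part of this: mt-Nd6 had 50.1, 432 and 92.0 CPM in RNA-seq, and without replicate 2 the values were -5.98 for mt-Nd6, -6.27 for mt-Nd2 and -6.20 for mt-Nd5. The deepest fall was that of Ccnb1ip1 (chromosome 14, 50789248 to 50807732), with 8.71, 9.27 and 6.02 CPM in RPFs and 5365, 729 and 1748 CPM in RNA-seq (-8.35 ± 0.90, adjusted p = 0.00037, edgeR), a gene whose span also holds Rpph1, the non-coding RNA of RNase P. Cdr1 had 1.35, 0.763 and 0.734 CPM against 59.7, 26.9 and 95.7 CPM (-6.05 ± 0.56) and lies opposite a long non-coding RNA with reads that cannot be told apart. Both spans thus hold a non-coding transcript, and its part in the falls was not tested. Col8a1 (-6.51) owed its place to RNA-seq replicate 2, with 663 CPM there and 5.76 and 8.48 CPM in replicates 1 and 3, and without that library its log2 occupancy was -1.53. The GTPase-activating protein gene Arhgap21 was alike, with 134, 11782 and 139 CPM in RNA-seq and a log2 occupancy of -5.70 that became -0.82. In the FMRP target lists Znfx1 rose most (5.27 ± 0.53), a gene that overlaps a non-coding gene. Genes with a stretch matching ribosomal RNA numbered 9 of the 3268 and 5 of the 3198 (Tmem38b at 5.11, Tax1bp1 at 2.99, Eif2ak2 at 2.19, Hddc2 at 1.89 and Hnrnpl at 1.86 led the former, and Kcng1 at -1.65, Antxr1 at -1.45, Polr2m at -1.37, Lbr at -1.29 and Rhobtb2 at -1.02 were the latter). The long non-coding list had 1 measured gene, Snhg11, with 12.1, 12.2 and 25.1 CPM in RPFs against 74.1, 52.6 and 145 CPM (-2.46 ± 0.46), and -0.77 with the standard RNA-seq, which did not pass.

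Brain markers were present in both kinds of library. The summed level of 8 neuronal markers was 11044 to 14886 CPM in RPFs and 5221 to 7918 CPM in RNA-seq, that of 8 astrocyte and radial glia markers 1966 to 2436 against 1246 to 1903 CPM, and that of 8 oligodendrocyte lineage markers 339 to 490 against 523 to 800 CPM. By gene, 5 of the neuronal markers were higher and 1 lower. Of the astrocyte and radial glia markers 3 were higher and 3 lower, and of the oligodendrocyte lineage markers none was higher and 4 were lower. Endothelial markers summed to 14.9 to 19.9 CPM in RPFs and 36.1 to 66.9 CPM in RNA-seq, with 6 of 7 tested lower and none higher, and mural and meningeal markers to 79.7 to 93.2 against 197 to 319 CPM, with 2 of 8 higher, 4 lower and a median log2 occupancy of -0.29. Microglial markers summed to 547, 187 and 180 CPM in RPFs and 145 to 171 CPM in RNA-seq, while 2 of 7 were higher and 3 lower with a median of -0.80. The endothelial markers thus fell, as did the collagens and laminins and the glycoproteins of neurons. The markers were set against the RNA-seq of their own preparation alone, and the part of endothelial cells in these results was not tested.

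Against the RPFs of the pellet of the same preparation, which holds the RNA granules, fraction 5/6 had 1341 (8.62%) genes higher and 2236 (14.4%) lower of 15560 (edgeR adjusted p under 0.05), and 2093 higher and 2949 lower with the replicate number as a block. Leaving out 1 library gave 90 to 730 higher and 720 to 1823 lower genes. Scaling by library size alone gave 2445 higher and 1622 lower, and upper quartile scaling 2365 and 1908, so the balance of the directions depended on the scaling. The RPF libraries of fraction 5/6 are those used above, so that this comparison shares them. Long genes were lower in fraction 5/6: the class medians fell from 0.39 up to 500 bases to -1.16 over 8000 bases, where 122 of 178 genes were lower. Ribosomal protein genes were on the higher side (55 of 84 higher, none lower, median 0.55), as were histones (16 higher, none lower) and proteasome subunits (16 higher, 1 lower). Glycoproteins of neurons (30 of 36 lower, median -1.63), collagens and laminins (21 of 27 lower), giant cytoskeletal and motor proteins (22 of 30 lower, median -1.02) and the run-off resistant mRNAs (109 of 185 lower, 3 higher) were on the lower side, with none higher in the lists but the last. FMRP targets had 140 of 262 (Maurin et al.) and 303 of 749 (Darnell et al.) lower. Without 1 library the higher calls were 6 to 32 for ribosomal protein genes, 1 to 10 for histones and 0 to 13 for proteasome subunits, and the lower calls 20 to 28 for glycoproteins, 16 to 21 for collagens and laminins, 17 to 22 for giant proteins and 64 to 94 for run-off resistant mRNAs, with 77 to 124 and 135 to 264 for the FMRP target lists. By gene, the RPFs of Dync1h1 (-2.90), Map1b (-2.34), Map1a (-2.78) and Grin1 (-2.09) were lower in fraction 5/6 than in the pellet, whereas Actb (-0.08), Tubb5 (0.03), Tubb2b (0.11) and Camk2a (-0.30) did not pass. The calls of these genes were the same with the replicate block. The values of lists and length classes are from the fit without the block. Among the largest rises were Foxl2 (7.05) and Cenpn (6.65), whose RPF libraries of fraction 5/6 disagreed widely. Foxl2 had 279, 1.46 and 59.2 CPM there and at most 1.09 CPM in the pellet. Cenpn had 502, 210 and 3.32 CPM against at most 2.63 CPM. The deepest falls were Zpbp2 (-6.48) and the overlapping genes Ntn5 and Sec1 (-5.67 each), with 16.0 to 28.3 CPM for Ntn5 in fraction 5/6 and 950 to 1270 CPM in the pellet.

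Occupancy of WT fraction 5/6 was also set against that of the standard preparation in 1 fit with an interaction term. Of 16274 genes, 2820 (17.3%) had a higher and 1578 (9.7%) a lower occupancy in the low nuclease preparation, with a median difference of 0.17. Scaling by library size alone gave 6417 and 599, with a median difference of 1.04, so the balance depended on the scaling here too. The standard RPF libraries had 51.1% to 63.2% of their counts in dropped genes, and the library labelled WT fraction 5/6 replicate 3 of that preparation had 5.31 CPM of Fmr1 against 149 and 155 CPM in replicates 1 and 2. Per 1e6 of all deposited counts, without TMM scaling, Fmr1 was at 1.71 in that library and at 2.82 to 6.80 in the 3 libraries of FMR1-KO mice, the knockout of the study, from the same fraction and preparation, so its level goes against its label and the library may not be wild type. It was kept in the values that follow, and without it the counts were 2234 and 1395. Ribosomal protein genes (65 of 84 higher, none lower, median 2.01) and histones (43 of 66 higher, 1 lower) had a higher occupancy with the low nuclease protocol. A lower one was found for glycoproteins of neurons (24 of 36 lower, none higher, median -2.47), collagens and laminins (18 of 27 lower, median -2.44), giant cytoskeletal and motor proteins (14 of 30 lower, none higher, median -1.97) and run-off resistant mRNAs (77 of 185 lower, 4 higher). Without the standard replicate 3 these lists had 57 and 35 higher (medians 1.80 and 2.01), and 21, 12, 13 and 63 lower (medians -1.81, -1.52, -1.17 and -0.85). These are the groups whose RNA-seq differed between the preparations, and the part of the RNA-seq in each difference is given by the values with both denominators above. The largest rises were 1810046K07Rik (14.52), 7530416G11Rik (12.40) and Rfx8 (12.27), genes nearly absent from the RNA-seq of both preparations, so that these values depend in part on the prior count. Among the largest falls, Gal3st2 (-16.32) had no RPF in the low nuclease libraries and 44.5 to 188 CPM in the standard ones, while Sspn (-14.20) and Dnah7b (-13.74) had 38789 and 1766 CPM in low nuclease RNA-seq replicate 2 and at most 4.52 and 5.06 CPM in replicates 1 and 3. Their RPFs were high in the standard preparation as well, with 444, 450 and 45.5 CPM for Sspn, against 180, 42.4 and 8.61 CPM in the low nuclease libraries, and 46.4, 729 and 145 CPM for Dnah7b, against 4.19, 3.69 and 1.34 CPM.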

How the data were processed

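RPFs and RNA-seq were deposited as 1 table of raw counts per gene, which the authors made with Cutadapt 2.10, Bowtie2 2.3.5, STAR 2.7.8a, SAMtools 1.19.2 and featureCounts 2.2.0 on GRCm38 with Ensembl 102 (from the paper and the submitters' processing notes). Reads of ribosomal and other non-coding RNA, and PCR duplicates marked by Picard, had been removed before counting per the methods, though counts reached 73.7 per base of the gene span (Zfp740), more than removal of reads with the same start on a strand would leave. No per-length or per-million scaling was applied to these counts. Gene spans and types came from GENCODE M21. Non-protein-coding genes and genes with over 1% of counts in any library of a comparison were left out, and genes were filtered with filterByExpr. Differences were tested with edgeR 4.0.16 (TMM, quasi-likelihood, Benjamini-Hochberg adjusted p under 0.05) in R 4.3.3, with limma 3.58.1, DESeq2 1.42.0 as an alternative, and Python 3.11.15, pandas 2.3.3, numpy 2.4.6, scipy 1.17.1 and matplotlib 3.10.9. CPM are TMM-scaled, and the fit was checked on simulated counts. Other alternatives were scaling, filters, leaving out each library, the replicate block, a test against a log2 change of 1, the other RNA-seq set and a fit of all 12 groups of the series, which include the FMR1-KO libraries.

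The members and gene lists were chosen with earlier results of these data known. Named genes are the 10 largest rises and falls called with and without RNA-seq replicate 2, with no overlap between groups and at least 10 CPM in the higher group (3 each in the other comparisons), genes matching ribosomal RNA over 30 bases at 90% identity being counted apart, with up to 5 named. To these come, for each list, the 2 members with the highest mean CPM and the largest rise and fall called, every dropped gene, and Fmr1, Cdk8, Tubb2b, Map1b, Camk2a, Actb, Gapdh, Eef1a1 and Atf4. A few genes that the rule picks are not reported here. Genes outside this rule are named where a result turned on them. RPF libraries of fraction 5/6 and of the pellet with the same replicate number deviated together (r = 0.203, 0.116 and 0.218 across genes), so these numbers pair the samples by the data, the labels not saying what they share, and the blocked counts are printed with that comparison. Depth is 8157016 to 140783761 counts per library after dropping. A floor is 3 counts, and intervals are exact at the 95% level. Both cover counting error only.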

Additional observations from a re-analysis of the deposited data

Results flagged for a closer look

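A test of the interaction between library type and preparation flagged a difference in the occupancy of WT fraction 5/6 between the low nuclease and the standard preparation for 2820 genes in the upward and 1578 in the downward direction, and for 48 of the named genes (30 higher and 18 lower, edgeR adjusted p under 0.05). Nuclease, MgCl2 and the way monosomes were collected differ together between the preparations, so these cannot be told apart, and the RNA-seq differs as well.

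A lower occupancy with the low nuclease protocol was found for genes of the cytoskeleton and transport, with log2 differences of -5.90 for Dync1h1, -3.23 for Map1a, -3.03 for Dbn1 and -2.13 for Kif1a. Secreted, membrane and ER proteins had -4.85 (Lamb2), -4.41 (Lrp1), -3.84 (Hsp90b1), -3.82 (Grin1), -3.66 (Ncan), -2.05 (Nrxn2) and -1.99 (Sparc). Other genes of gene expression had -4.59 (Eif3a), -4.06 (Chd5) and -1.54 (Hnrnpa2b1), and Tmem38b, which matches ribosomal RNA over a stretch, had -4.49. Zfp791, with the high standard RPFs and low RNA-seq given above, had -5.87. Arhgap21 had -11.34 and Col8a1 -8.46, which became -6.53 and -3.55 without RNA-seq replicate 2 of the low nuclease preparation. The RPFs of Arhgap21 were also high in the standard preparation, with 6076, 15096 and 253 CPM.

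Many of these values moved with 1 RPF library of the standard preparation, the library labelled WT fraction 5/6 replicate 3, whose Fmr1 level of 5.31 CPM goes against its label. Its RPFs were at 2532 CPM for Dync1h1, against 84.8 and 104 CPM in replicates 1 and 2, and at 5120 CPM for Chd5, against 245 and 276 CPM. Without it the differences were -2.70 for Dync1h1, -1.29 for Map1a, -2.15 for Dbn1, -1.23 for Kif1a, -2.71 for Lamb2, -2.41 for Lrp1, -3.15 for Hsp90b1, -3.06 for Grin1, -2.68 for Ncan, -3.36 for Eif3a, -1.27 for Chd5 and -3.31 for Tmem38b. The 18 lower genes were called again without it, and 43 of all 48, none having turned, while Cct4, Ptbp2, Dcx, Rpl4 and Eef1a1 were lost. Without RNA-seq replicate 2 of the low nuclease preparation 44 of the 48 were called, and Chd5, Map1a, Hnrnpa2b1 and Cct4 were lost.

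A higher occupancy was found among genes of translation and its control for Eif3e (2.54), Atf4 (1.83), Rpsa (1.60), Eef1a1 (1.48), Rpl4 (1.22), Azin1 (1.12) and Oaz1 (1.11). In metabolism and protein turnover it was 2.82 for Atp5l, 1.90 for Atp5c1, 1.71 for Psmc6, 1.62 for Gapdh and 0.93 for Cct4. Histone and regulatory genes had 1.58 (H1f5), 1.42 (H1f2), 1.31 (H1f4), 1.62 (Id2), 1.23 (Cdk6), 1.04 (Zfp704), 1.43 (Polr2m), 1.24 (Hddc2) and 0.94 (Ptbp2), and genes of the cytoskeleton and matrix 1.57 (Dstn), 1.02 (Dcx) and 3.30 (Hspg2). The span-sharing genes Znfx1 (5.47) and Cdr1 (3.36) were also higher, as were Fgg (6.05), Rfx8 (12.27), 7530416G11Rik (12.40) and 1810046K07Rik (14.52), which were nearly absent from the RNA-seq.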

How the results depend on the processing

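The counts of higher and lower occupancy stayed within 1.5 times of 4464 and 4623 under every alternative but a test against a log2 change of 1, which left 1773 and 2173. Leaving out 1 library gave 3718 to 4823 higher and 3655 to 5170 lower genes, DESeq2 4756 and 4668, library size alone 3395 and 4610 and, added after the counts of nested genes were seen, genes with no overlapping gene 3370 and 3485. The replicate block gave 4268 and 4472. Same-numbered RPF and RNA-seq libraries deviated together as well, though more weakly than those of the pellet (r = 0.0955, 0.0634 and 0.106). Each library correlated best with its own number. The labels do not say what these libraries share, and the main fit has no block. Between the preparations, library size alone gave 6417 and 599, the replicate block 2785 and 1352, DESeq2 2821 and 2298, and leaving out 1 library 1788 to 2885 and 1010 to 1990. Fraction 5/6 over pellet gave 2445 and 1622 with library size alone, 2365 and 1908 with the upper quartile, 2093 and 2949 with the replicate block, and only 90 to 730 and 720 to 1823 without 1 library. The lowest count of higher genes, 90, came without pellet replicate 3, and 129 came without pellet replicate 1, 245 without fraction 5/6 replicate 1, 403 without pellet replicate 2, 631 without fraction 5/6 replicate 3 and 730 without fraction 5/6 replicate 2. The cause was not tested.

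With the standard RNA-seq the medians turned to 0.51 (synaptic vesicle genes), -1.47 (histones), -0.14 (Zfp genes), 0.12 (glycoproteins of neurons) and 0.65 (run-off resistant mRNAs), and the values of Cdk4 to -0.20, Chd5 to 0.047, Col8a1 to 0.76, Eef1a1 to -1.43, Grin1 to 0.69, Hsp90b1 to 1.51, Kif1a to 0.10, Ncan to 0.032, Pkm to 0.23, Sparc to 0.84, Zfp462 to 0.17 and Ccnd2 to -0.38. The median of the immediate early genes (0.01) turned to -0.19 with library size alone, -0.035 with at least 10 counts in every library, -0.054 in the fit of all 12 groups, -0.10 in genes with no overlapping gene, -0.035 relative to genes of like span and exonic length, -0.11 without RPF replicate 3 and -0.28 without RNA-seq replicate 2 (-0.28 to 0.40 without 1 library). With library size alone, Camk2a turned to -0.14, Ccnd2 to -0.12 and Eef1a1 to -0.030. Relative to genes of like span and exonic length, Camk2a turned to -0.0062, Ccnd2 to -0.20, Cdk6 to 0.15 and Eef1a1 to -0.22. Camk2a was -0.084 without RNA-seq replicate 2 (-0.084 to 0.14 without 1 library) and -0.033 in the fit of all 12 groups. Ccnd2 was -0.0072 with the upper quartile, -0.0026 with no gene dropped, -0.12 with the replicate block, -0.051 in the fit of all 12 groups, -0.49 without RPF replicate 2 and -0.031 without RNA-seq replicate 3 (-0.49 to 0.25 without 1 library). Of 118 named genes tested, 104 were called, 65 of them under every alternative, 2 (Map1b and Aurkb) were lost without RNA-seq replicate 2, and 7 (Chd5, Col8a1, Grin1, Hsp90b1, Kif1a, Ncan and Sparc) turned direction in a test, that with the standard RNA-seq. Cdk6, also called, turned relative to genes of like span and exonic length, a value with no test. Depth limits RNA-seq replicate 2 most, with 8157016 counts left.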

Other observations

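A set of genes had RPFs in fraction 5/6 with almost no RNA-seq. Of 948 genes with a mean under 0.5 CPM in the RNA-seq of the low nuclease preparation, 48 had a mean of at least 10 CPM in RPFs and 17 reached it in every RPF library. Of these 17, 11 also reached it in every pellet library of the preparation, while 3 did so in every RPF library of fraction 5/6 of the standard preparation. The RPF libraries differed by over 10-fold for 27 of the 48. Among the steady ones, Slc5a11, a sodium-coupled inositol transporter, had 300, 275 and 378 CPM in RPFs, at most 0.303 CPM in RNA-seq and 70.5 to 96.8 CPM in the pellet. Hmx1, a homeobox factor, had 355, 185 and 96.0 CPM in RPFs of fraction 5/6, at most 0.0982 CPM in RNA-seq, and 6707 to 19360 CPM in the standard fraction 5/6. For the surfactant protein gene Sftpc the RPF levels were 259, 89.2 and 52.6 CPM, and 3343, 0 and 6455 CPM in the standard fraction 5/6. These genes were chosen after their values were seen.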
